A study of Homo sapiens with 6 samples.

Results

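The 37 genes of the human mitochondrial genome were followed through 6 RNA-seq libraries. They were taken as every gene on the mitochondrial chromosome of GENCODE 29 with a symbol starting MT-, and all 37 were found among the 58051 genes of the deposited table. They comprise 13 mRNAs, 2 rRNAs and 22 tRNAs. On the annotation's plus strand lie 28 of them, and 9 lie on its minus strand, where MT-ND6 is the sole mRNA.

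Mitochondria keep their own small circular genome in many copies per cell. It is read from promoters in its control region into long precursor RNAs that cover almost a whole strand. In these precursors most mRNAs and rRNAs are separated by tRNAs, and the enzymes RNase P (with PRORP) and ELAC2 release the pieces by cutting out the tRNAs. Most of the mRNAs then receive a short poly(A) tail from MTPAP and are held by the LRPPRC and SLIRP complex. All the encoded proteins are subunits of respiratory complexes I, III and IV and of the ATP synthase, while the rRNAs and tRNAs serve the mitochondrial ribosome.

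The libraries came from cells labelled NTera-2 (NT2), an embryonal carcinoma line. Their titles name mimics of piR-36249, a PIWI-interacting RNA, for 3 libraries and the matching scramble control for the other 3. For the mimic libraries the genotype field names a knockdown and the treatment field an overexpression, so the groups are called mimic and scramble here, and every difference is mimic minus scramble. The labels used here give no dose or time. They do not say that replicates were grown separately, so the spread behind every p-value may be technical. The label of the line went against its markers: of 14 embryonal carcinoma genes DNMT3B alone had a mean of at least 0.5 FPKM and 7 (NANOG, SOX2, TDGF1, SALL4, L1TD1, PRDM14 and UTF1) were listed at 0 in every library, whereas 8 of 12 endothelial genes reached that mean. The summed level of the embryonal carcinoma genes was 5.27 to 5.52 FPKM with mimic and 3.12 to 3.70 with scramble. That of the endothelial genes was 702 to 765 FPKM with mimic and 587 to 630.1 with scramble, and whether this bears on the mitochondrial values was not tested. In the limma fit over all genes, which called 18.7% of genes tested higher, 7 of the 8 endothelial genes that passed its filter and the 1 embryonal carcinoma gene that did, DNMT3B, were called higher.

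Values are FPKM as the authors computed them, which are scaled to gene length and library size. Comparing levels between genes on this scale has limits. MT-ATP8 and MT-ATP6, read from a single mRNA, averaged 545 and 3535 FPKM over the 6 libraries. MT-ND4L and MT-ND4, which also share an mRNA, averaged 2489 and 3855 FPKM. The FPKM steps gave depths between 47988000 and 62738000 reads per library, rounded. Mitochondrial genes took 2079000 to 2759000 of these reads. Such bulk values cannot tell fewer mitochondrial genomes or fewer cells of a type from less RNA per cell.

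Mitochondrial RNAs filled the top of the abundance order. By mean FPKM, 9 of the 10 most abundant genes of the table were mitochondrial, and 15 of the 50 most abundant. MT-CO1 ranked 1, MT-CO2 ranked 2, MT-CO3 ranked 3, MT-ND2 ranked 4 and MT-ND4 ranked 5, each at the same rank in all 6 libraries. Over the 6 libraries MT-CO1 measured 6526 ± 204 FPKM (SD), and the lowest mRNA gene was MT-ATP8 at 545 ± 209. MT-CO2 stood at 6031 ± 246 and MT-CO3 at 5028 ± 568, followed by MT-ND2 (4169 ± 208), MT-ND4 (3855 ± 315), MT-ATP6 (3535 ± 473) and MT-ND1 (3172 ± 213). Below them came MT-ND4L (2489 ± 223), MT-RNR2 (1994 ± 504), MT-ND5 (1285 ± 111), MT-CYB (1248 ± 152), MT-RNR1 (1142 ± 225), MT-ND6 (1071 ± 123) and MT-ND3 (898 ± 172). From MT-ND2 to MT-ND1, and from MT-ND5 to MT-ND6, each gene's mean differed from the next by less than the larger of their SDs. No order along the plus strand was seen in the levels themselves (Spearman's rho -0.14 over 14 rRNAs and mRNAs, a description across genes that share their libraries).

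**Figure D1:**
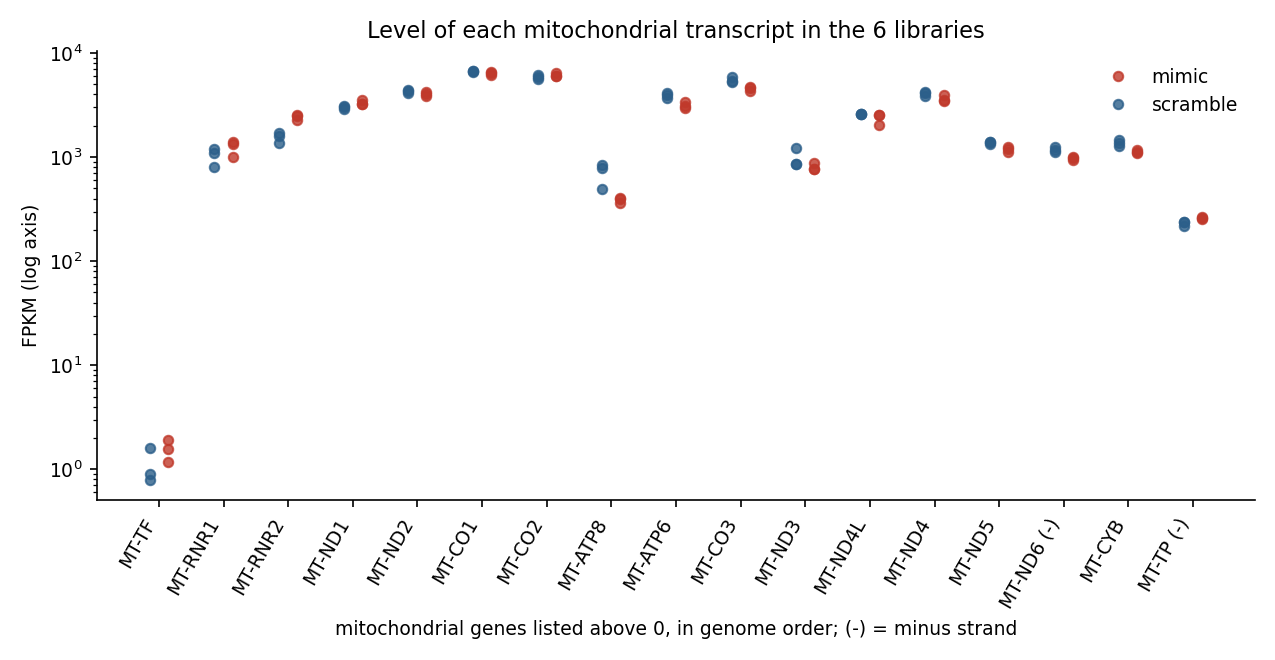
FPKM (log axis) of the 17 mitochondrial genes listed above 0, in genome order, with 1 point per library (red, mimic; blue, scramble) and (-) for the minus strand. MT-CO1 is highest near 6526 FPKM, and MT-RNR2, MT-ATP8 and MT-ATP6 show clear gaps between the groups.

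The share of the mitochondrial genome in all FPKM was slightly lower with mimic, while its classes went opposite ways. All 37 genes together held 14.5%, 15.1% and 15.3% of FPKM in mimic replicates 1 to 3 and 15.7%, 15.4% and 15.6% in scramble replicates 1 to 3. The groups did not overlap, but the highest mimic and the lowest scramble library were close. The 13 mRNAs held 13.6% ± 0.552 (SD, n = 3) with mimic and 14.6% ± 0.230 with scramble. The 2 rRNAs held 1.39%, 1.39% and 1.16% with mimic and 1.02%, 0.956% and 0.748% with scramble, a ratio of the means of 1.45. Counted in reads, which weights long genes, the whole genome took 4.22% ± 0.105 of reads with mimic and 4.36% ± 0.0894 with scramble, and the groups overlapped. The minus-strand genes held 0.438% ± 0.0156 of FPKM with mimic and 0.492% ± 0.0144 with scramble, without overlap, and the plus-strand genes 14.5% ± 0.457 and 15.1% ± 0.162, with overlap. The minus-strand sum is MT-ND6 and MT-TP alone, since the other 7 genes of that strand were listed at 0. These genes went opposite ways, MT-ND6 lower (log2 -0.28) and MT-TP higher (0.18). Without mimic replicate 1 the difference for all 37 genes shrank from -0.60 to -0.35 percentage points. These sums were not tested, since they are scores over the chosen genes.

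**Figure D2:**
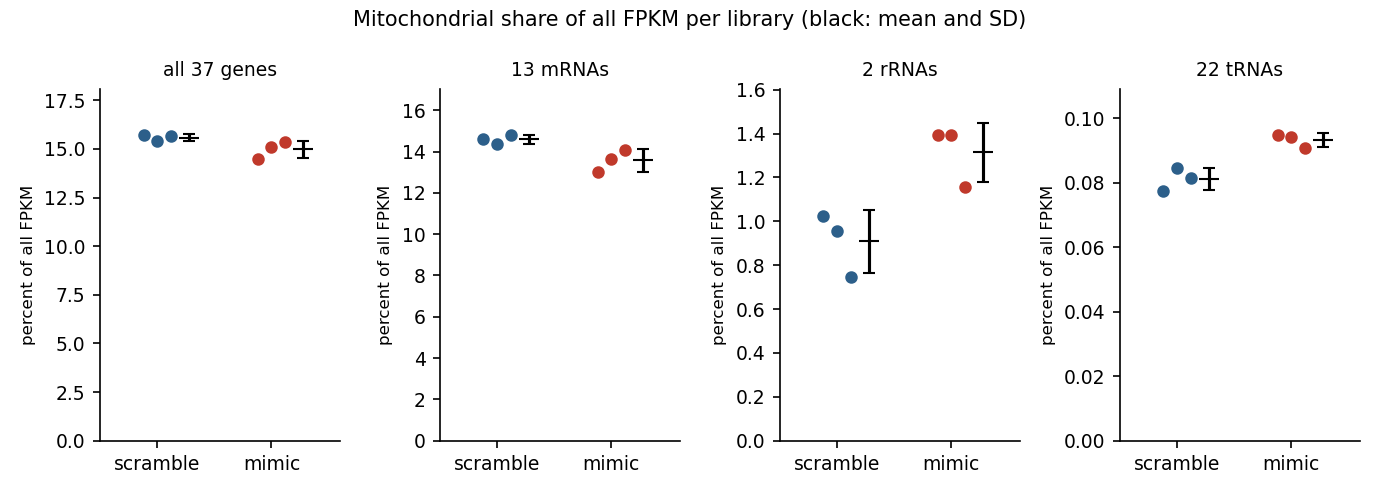
Percent of all FPKM per library (points) for all 37 genes, the 13 mRNAs, the 2 rRNAs and the 22 tRNAs, with the mean and SD of each group in black and axes starting at 0. The mRNA share is lower with mimic (13.6% against 14.6%), and the rRNA share is higher (1.31% against 0.909%). MT-TP alone holds 99.3% to 99.7% of the tRNA FPKM per library.

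In the fit over all genes (limma on log2(FPKM + 1), Benjamini-Hochberg adjusted p under 0.05), 17 of the 37 members passed the filter of a mean of at least 0.5 FPKM. These were all 13 mRNAs, both rRNAs and 2 tRNAs. Of them 2 rose and 6 fell, while 9 missed the threshold, and without scramble replicate 1 the count called was 5 in place of 8. With no filter on low values, MT-RNR2 was the sole member called. Among all 12912 genes tested, 35.5% were called, 18.7% higher and 16.8% lower. The median log2 fold change of the 13 mRNAs was -0.21, beside 0.0025 over all genes tested, and 11 of the 13 estimates were below 0. All 6 members that fell were mRNA genes, which sets 6 of 13 mRNA genes beside the 16.8%. These 13 are not independent, since MT-ATP8 and MT-ATP6, both lower, share a single mRNA, as do MT-ND4L and MT-ND4. Among 33 nuclear genes averaging 500 FPKM or more, a level chosen after the values were seen, 45.5% were called and 27.3% were lower. These 33 include MTATP6P1, a nuclear copy of MT-ATP6 that was itself called lower. Of the 17 members tested, 10 had groups that did not overlap, beside 49.2% of all genes tested. Of these 10, 7 were lower with mimic (beside 23.2% of all genes tested) and 3 higher (beside 26%). The authors' deposited table, a filtered list of 401 genes, held none of the 37.

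The ATP synthase subunits showed the largest falls. MT-ATP8 encodes a small membrane subunit and MT-ATP6 the subunit that forms part of the proton channel, and both are read from a single mRNA on which their reading frames overlap. MT-ATP8 (ENSG00000228253) lies on the plus strand at chrM:8366-8572 (GRCh38) and MT-ATP6 (ENSG00000198899) at chrM:8527-9207. The sequence of MT-ATP8 from the GENCODE 29 transcripts is shown because 46 of its 207 bases, in capitals, also belong to MT-ATP6, so that reads there can be assigned to either gene or to none.
MT-ATP8: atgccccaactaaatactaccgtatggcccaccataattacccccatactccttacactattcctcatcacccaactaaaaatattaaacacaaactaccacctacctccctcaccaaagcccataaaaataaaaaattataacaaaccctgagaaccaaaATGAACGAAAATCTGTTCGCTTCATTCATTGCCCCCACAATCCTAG

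MT-ATP8 measured 395, 405 and 360.8 FPKM in mimic replicates 1 to 3 and 492, 832 and 784 FPKM in scramble replicates 1 to 3. Every mimic library was below every scramble library, and scramble replicate 1 stood well below the other scramble libraries. It fell by 0.82 on the log2 scale (SE 0.18, limma adjusted p = 0.00985). Without scramble replicate 1 the log2 fold change was -1.06, and it stayed past the threshold without any single library. MT-ATP6 measured 2993, 3068 and 3349.8 FPKM with mimic and 3944, 3704 and 4149 FPKM with scramble, again with no overlap. It fell by 0.33 on the log2 scale (SE 0.069, limma adjusted p = 0.00897). The ratio of MT-ATP8 to MT-ATP6 was 0.124 ± 0.0140 with mimic and 0.179 ± 0.0506 with scramble, and the groups overlapped. MT-ATP8 is also the shortest of the mRNAs. Among 359 nuclear genes tested with under 300 bases of exon, 14.8% were called, 5.57% higher and 9.19% lower.

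Of the cytochrome c oxidase subunits, the catalytic core of complex IV, only MT-CO3 (chrM:9207-9990) was called. It measured 4655, 4313 and 4725 FPKM with mimic and 5373, 5229 and 5872 FPKM with scramble, so that the groups stayed apart. It fell by 0.27 on the log2 scale (SE 0.070, limma adjusted p = 0.0213). The call was lost without mimic replicate 2 (adjusted p = 0.0824) or scramble replicate 1 (0.0583). MT-CO1, the subunit with the oxygen-reducing site, measured 6167, 6411 and 6603 FPKM with mimic and 6588, 6693 and 6694 FPKM with scramble. Its groups overlapped and its log2 difference was -0.06 (SE 0.059, limma adjusted p = 0.469). MT-CO2, which accepts electrons from cytochrome c, measured 5960.3, 6072 and 6393 FPKM with mimic and 5914.5, 5671 and 6177 FPKM with scramble. These values overlapped too, with a log2 difference of 0.05 (SE 0.064, limma adjusted p = 0.549).

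MT-CYB, the cytochrome b of complex III and the last mRNA of the plus strand (chrM:14747-15887), was lower with mimic. It measured 1089, 1120.1 and 1165 FPKM with mimic and 1372, 1264 and 1475 FPKM with scramble. All 3 mimic libraries lay below all 3 scramble libraries, and the gene fell by 0.28 on the log2 scale (SE 0.065, limma adjusted p = 0.0125).

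Of the 7 NADH dehydrogenase subunits of complex I, MT-ND5 and MT-ND6 fell. MT-ND5 (chrM:12337-14148), a proton-pumping subunit, measured 1129.6, 1262 and 1191.5 FPKM with mimic and 1393, 1402 and 1333 FPKM with scramble. It fell by 0.21 on the log2 scale (SE 0.055, limma adjusted p = 0.0237). Although its groups did not overlap, leaving out mimic replicate 1 or 3, or scramble replicate 1 or 2, ended the call (largest adjusted p 0.0833).

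MT-ND6 (chrM:14149-14673), read from the opposite strand to the other mRNAs, measured 1003, 973 and 929.8 FPKM with mimic and 1171, 1107 and 1243 FPKM with scramble. The groups were separate, and it fell by 0.28 on the log2 scale (SE 0.058, limma adjusted p = 0.00835). Its size was close to that of MT-CYB on the plus strand, and the ratio of MT-ND6 to MT-CYB was 0.863 ± 0.0616 with mimic and 0.857 ± 0.0168 with scramble. The use of strand in counting is not given in the sources used here, so RNA from the opposite strand of any member cannot be told apart.

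The other complex I subunits did not pass the test. MT-ND1 measured 3249, 3205 and 3531 FPKM with mimic and 3079.95, 2906 and 3059 FPKM with scramble, and was the sole mRNA with every mimic library above every scramble library. Its log2 difference was 0.14 (SE 0.061, limma adjusted p = 0.106). It passed when libraries were scaled to TPM (adjusted p = 0.0301), to their nuclear FPKM (0.0470) or by quantiles (0.00075), and with voom on recovered reads (0.0242). Quantile normalization sets values by rank, and MT-ND1 ranked above MT-ATP6 in every mimic library but below it in every scramble library. MT-ND2 measured 3845, 4036 and 4249.8 FPKM with mimic and 4366, 4132 and 4385 with scramble, and the groups overlapped, with a log2 difference of -0.09. MT-ND4 measured 3430.4, 3527 and 3923 FPKM with mimic and 4141, 3906 and 4202 with scramble, with a log2 difference of -0.17 and 1 mimic library inside the scramble range. MT-ND3 (log2 -0.28, SE 0.14) overlapped between groups, where scramble replicate 3 stood at 1236 FPKM and scramble replicates 1 and 2 at 866 and 865. MT-ND4L, which shares an mRNA with MT-ND4, had a log2 difference of -0.14, and the ratio of MT-ND4L to MT-ND4 was 0.654 ± 0.0594 with mimic and 0.639 ± 0.0202 with scramble.

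Against most of the mRNAs, the RNA of the large mitochondrial ribosomal subunit rose. MT-RNR2, the 16S rRNA (ENSG00000210082, chrM:1671-3229), measured 2538, 2500.3 and 2269.6 FPKM with mimic and 1695, 1583 and 1376 FPKM with scramble. The lowest mimic library was far above the highest scramble library. It rose by 0.65 on the log2 scale (SE 0.086, limma adjusted p = 0.0010), a ratio of 1.57, and kept its call under all 18 alternatives, between 0.57 and 0.72. MT-RNR1, the 12S rRNA of the small subunit (chrM:648-1601), measured 1412, 1346 and 992 FPKM with mimic and 1195, 1101 and 808 FPKM with scramble. Replicate 3 was the lowest library in each group and the groups overlapped. Its log2 difference of 0.28 did not pass the test (SE 0.17, limma adjusted p = 0.254). The ratio of MT-RNR2 to MT-RNR1 was 1.98 ± 0.267 with mimic and 1.52 ± 0.158 with scramble, without overlap.

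By mean FPKM MT-RNR2 ranked 10 and MT-RNR1 ranked 20 in the table, and the summed rRNA to mRNA ratio lay between 0.0505 and 0.107. How the libraries were selected for RNA is not given in the sources used here. RMRP, RPPH1 and SCARNA2, which carry no poly(A) tail, were listed at 0 in all 6 libraries, and TERC had at most 0.0350 FPKM (genes chosen after values were seen). The part of RNA selection in the rRNA values was not tested.

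Nearly all tRNAs were absent from the table's values. Of 22, 20 were listed at 0 in every library, 13 on the plus and 7 on the minus strand, and a count of 0 allows up to 3 reads, which is 0.638 to 1.06 FPKM for genes of 59 to 75 bases (counting error only). Each of these 20 lies within 1 base of a neighbouring gene, or overlaps it, on at least 1 side, and the largest gap to any neighbour is 31 bases. The other two, MT-TP and MT-TF, are the genes that flank the control region, where no gene is annotated on 1 side. Their sequences are shown with that of MT-TT, which lies next to MT-TP on the opposite strand and was listed at 0. All are written as the RNA strand in DNA letters from the GENCODE 29 transcripts, at chrM:15956-16023 (minus strand), chrM:577-647 (plus) and chrM:15888-15953 (plus).
MT-TP: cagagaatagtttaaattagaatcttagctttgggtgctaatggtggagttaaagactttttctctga
MT-TF: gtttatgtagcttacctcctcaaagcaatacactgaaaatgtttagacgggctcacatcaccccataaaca
MT-TT: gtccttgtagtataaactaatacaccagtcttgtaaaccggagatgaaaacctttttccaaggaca

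MT-TP, the proline tRNA, measured 267, 259 and 255 FPKM with mimic and 218, 236 and 237 FPKM with scramble, from 831 to 1065 reads per library. All mimic libraries were above all scramble libraries. It rose by 0.18 on the log2 scale (SE 0.046, limma adjusted p = 0.0209), but the call was lost without mimic replicate 1 (adjusted p = 0.0635), mimic replicate 2 (0.0502) or scramble replicate 1 (0.0793). MT-TF, the phenylalanine tRNA, had only 3 to 8 reads per library, and its log2 difference of 0.29 did not pass the test (limma adjusted p = 0.190). It passed without scramble replicate 2 (0.0345). Short genes wedged between others can lose reads that span a boundary, and the part of this in the tRNA values was not tested. The reads over MT-TP and MT-TF also cannot tell mature tRNA from precursor RNA. With strand use not given, they cannot tell it from RNA of the opposite strand either.

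Along the plus strand, every rRNA and mRNA before MT-ATP8 had a higher log2 difference than MT-ATP8 and those after it. This pattern was noticed after the values were seen. The genome is circular, so the first and the last genes of this order both lie towards the control region. The 6 rRNAs and mRNAs before MT-ATP8 had log2 differences from -0.09 to 0.65 with a median of 0.10, and 1 of them rose. The 7 after it ranged from -0.33 to -0.14 with a median of -0.27, and 4 of them fell. Spearman's rho between start position and log2 difference was -0.70 over the 14 genes, -0.77 over 13 without MT-ATP8 and -0.52 over the 12 mRNAs. These are descriptions across genes that share libraries and precursor RNAs, and among the 12 mRNAs the difference also went with the mean level (rho 0.62).

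**Figure D3:**
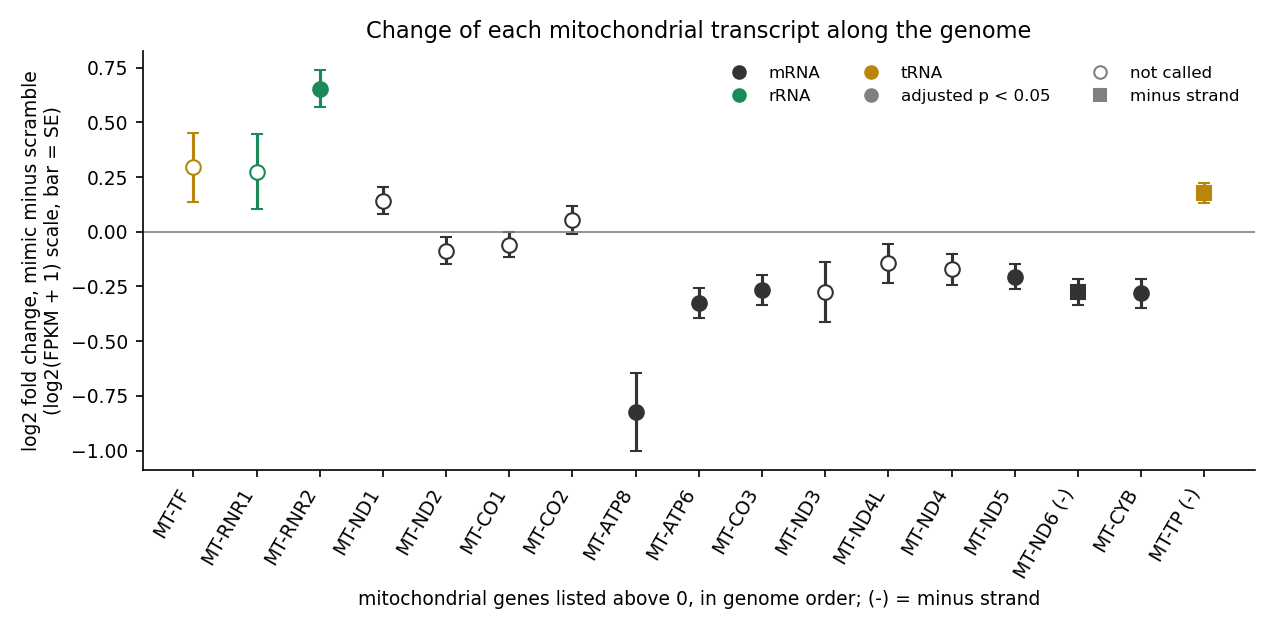
Log2 difference (mimic minus scramble, log2(FPKM + 1) scale) with its SE for the 17 tested members in genome order, filled where the adjusted p is under 0.05 and square on the minus strand. Values run from 0.65 at MT-RNR2 to -0.82 at MT-ATP8, and the 7 plus-strand genes after MT-ATP8 all lie below 0.

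Ratios within a library, which do not depend on library scaling, gave contrasts between parts of the genome from the same FPKM values. MT-RNR2 to MT-ND1, the mRNA that follows it, was 0.781, 0.780 and 0.643 with mimic and 0.550, 0.545 and 0.450 with scramble. MT-ND1 to MT-CYB was 2.96 ± 0.0870 with mimic and 2.21 ± 0.117 with scramble. MT-CO2 to MT-ATP6, which lie on either side of MT-ATP8, was 1.96 ± 0.0449 with mimic and 1.51 ± 0.0218 with scramble. In each of these 3 ratios all mimic libraries exceeded all scramble libraries, whereas MT-CO3 to MT-ATP6, both on the far side, was 1.46 ± 0.0851 with mimic and 1.40 ± 0.0297 with scramble and overlapped. The ratios were chosen after the values were seen and were not tested.

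**Figure D4:**
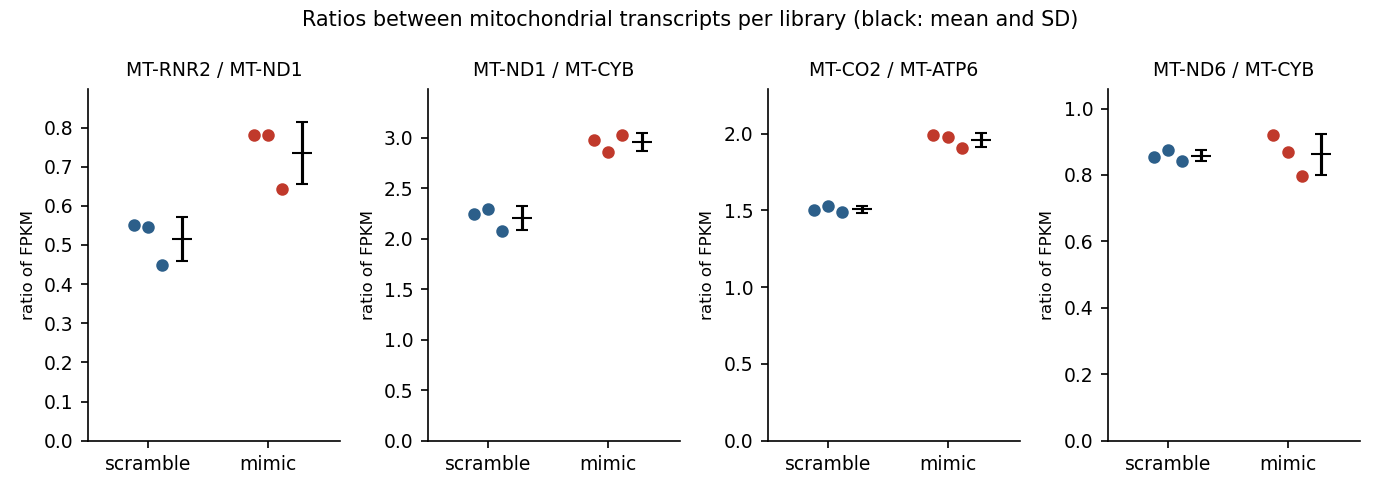
Ratio of FPKM between pairs of mitochondrial transcripts in each library (points), with the group mean and SD in black and axes starting at 0. The first 3 ratios separate the groups (for example MT-CO2 to MT-ATP6 at 1.96 against 1.51), while MT-ND6 to MT-CYB stays at 0.863 against 0.857.

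The nuclear genome carries copies of mitochondrial sequence, and a few of them drew many reads. Of 412 annotated copies of mRNA and rRNA genes in the table, 344 were listed at 0 and 7 had a mean of at least 0.5 FPKM. Of the 7, 6 lie close together on chromosome 1. The most abundant, MTATP6P1 (chr1:633696-634376, plus strand, GRCh38), has 10 differences from MT-ATP6 over 681 bases, and their longest identical run is 141 bases. It measured 622, 607 and 654 FPKM with mimic and 772, 713 and 864 FPKM with scramble. Like MT-ATP6 it kept the groups apart, and it fell by 0.31 on the log2 scale (SE 0.073, limma adjusted p = 0.0129). The ratio of MT-ATP6 to MTATP6P1 was 4.99 ± 0.162 with mimic and 5.04 ± 0.208 with scramble. Reads of near-identical copies cannot be assigned with certainty, so the values of the copies and of their mitochondrial counterparts are uncertain.

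The remaining copies followed no common level. MTND2P28 (chr1:629640-630683) differs from MT-ND2 at 17 of 1042 aligned bases, shares a run of 266 identical bases with it, and measured 227 ± 37.6 FPKM with mimic and 252 ± 26.5 with scramble (limma adjusted p = 0.345). MTCO1P12, with 20 differences over 1542 bases and a shared run of 245, was far lower at 9.64 ± 1.36 and 11.1 ± 3.35 FPKM (limma adjusted p = 0.557). MTCO3P12 (log2 -0.27), MTATP8P1 (-0.17), MTND1P23 (-0.30) and, on chromosome 5, MTND4P12 (-0.22) lay between 0.413 and 2.39 FPKM and did not pass the test. All 7 estimates were below 0, and 1 was called. Of these, MTND1P23 passed without mimic replicate 2 (adjusted p = 0.0209) and MTCO3P12 without scramble replicate 1 (0.0472).

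**Figure D5:**
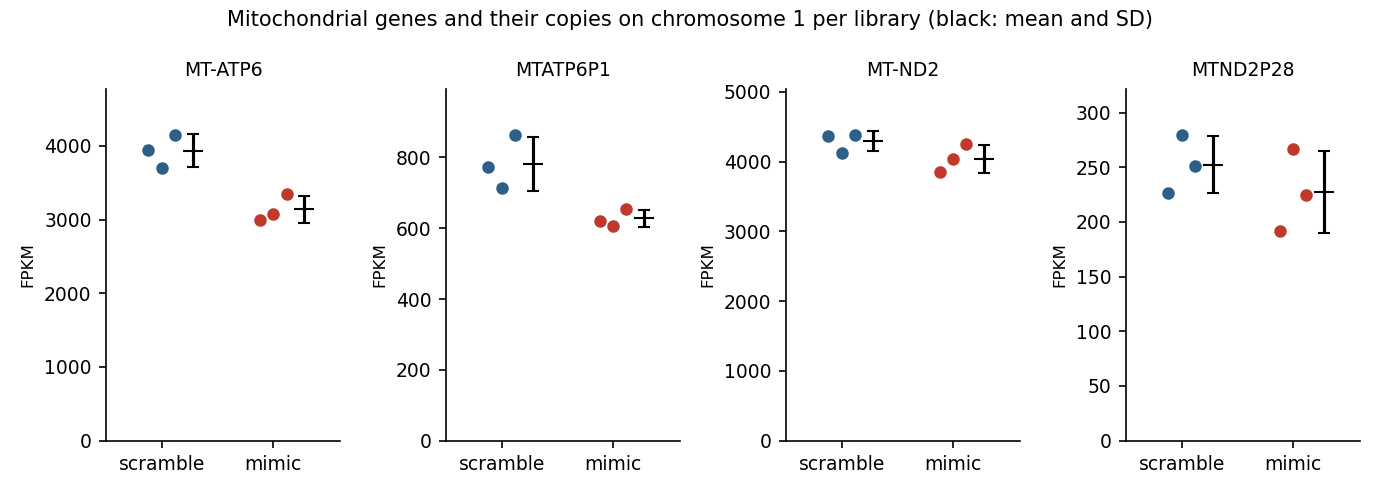
FPKM per library (points) of MT-ATP6, MT-ND2 and their nuclear copies on chromosome 1, with the group mean and SD in black and axes starting at 0. MTATP6P1 separates the groups as MT-ATP6 does (MT-ATP6 to MTATP6P1 ratio 4.99 with mimic and 5.04 with scramble), and MTND2P28 overlaps between groups.

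Nuclear genes for mitochondrial DNA expression and mitochondrial mass were read from 6 lists with 114 genes, of which 112 were tested. Of these 4 rose and 32 fell (32.1% called, 28.6% lower), with a median log2 fold change of -0.09, beside 35.5% called and 16.8% lower among all genes tested. In the list for transcription and replication of mitochondrial DNA, 5 of 20 genes fell and 15 did not pass the test. RNASEH1, which removes RNA from RNA-DNA hybrids, fell by 0.31 on the log2 scale, the primase PRIMPOL by 0.32, MTERF3, a factor of the termination factor family, by 0.24, and TWNK, the replicative helicase, by 0.21. TOP1MT, the mitochondrial topoisomerase, fell by 0.19, a call lost without any single library other than scramble replicate 2 (adjusted p up to 0.0761). The RNA polymerase POLRMT (-0.07) and the promoter factors TFAM (0.12) and TFB2M (0.09) did not pass the test.

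Among 23 genes for processing, stability and decay of mitochondrial RNA, 1 rose and 4 fell. Called were 21.7% and lower 17.4%, beside 35.5% and 16.8% of all genes tested. TBRG4, a FASTK family protein also known as FASTKD4, fell from 34.1 ± 1.53 to 28.7 ± 0.825 FPKM (log2 -0.24), PDE12, which removes poly(A) tails, fell by 0.22 and FASTKD3 by 0.24. FASTK rose by 0.21. ELAC2 fell by 0.12, but its call was lost when any single library was left out (largest adjusted p 0.0922), without a variance trend (0.0629) and with TPM (0.0611). LRPPRC (0.00), SLIRP (-0.16), MTPAP (0.04), PRORP (0.16) and PNPT1 (-0.11), a subunit of the mitochondrial degradosome, did not pass the test.

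The list for modification of mitochondrial tRNA, with the addition of its CCA end, holds no enzyme that charges tRNA with its amino acid. It had 10 of 18 genes lower and 1 higher. This is 61.1% called and 55.6% lower, beside 35.5% and 16.8% of all genes tested. QTRT2, a subunit of the enzyme that inserts queuine, fell from 6.80 ± 0.486 to 3.66 ± 0.248 FPKM (log2 -0.74, limma adjusted p = 0.00015). YRDC, which makes the precursor of a threonyl-carbamoyl base, fell by 0.51, TRNT1, which adds the CCA end, by 0.40, the methyltransferase NSUN2 by 0.35 and TRMT2B by 0.27. Several of these, among them YRDC, TRNT1, NSUN2 and QTRT2, also act on cytosolic tRNA.

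In the list for mitochondrial rRNA modification and ribosome assembly, 3 of 18 genes fell and 1 rose. With 22.2% called and 16.7% lower, the list stands beside 35.5% and 16.8% of all genes tested. MRM2 and MRM1, methyltransferases of the 16S rRNA, fell by 0.32 and 0.21, and DHX30, a helicase of mitochondrial RNA granules, by 0.18. NGRN, which is needed for 16S rRNA stability, rose by 0.18, and TRUB2 (-0.13) did not pass the test. MRM1 lost its call when mimic replicate 3, scramble replicate 1 or scramble replicate 3 was left out (largest adjusted p 0.0826), and NGRN when mimic replicate 2 or 3, or scramble replicate 2 or 3, was (0.0878).

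For translation in mitochondria, 3 of 15 tested genes fell and 12 did not pass the test. Thus 20% were lower, beside 16.8% of all genes tested, where 35.5% were called in either direction. LETM1, a protein of the inner membrane, fell from 16.2 ± 0.381 to 12.1 ± 0.678 FPKM (log2 -0.39). The elongation factor TUFM fell by 0.16 and TACO1, a translational activator of MT-CO1, by 0.18, and TUFM lost its call without any single library other than scramble replicate 2 (adjusted p up to 0.0790), TACO1 when mimic replicate 2 or 3, or scramble replicate 1 or 3, was left out (up to 0.104). The release factor MTRF1 (-0.16) and C1QBP (-0.20) did not pass the test (limma adjusted p = 0.0534 for each). C1QBP passed without mimic replicate 1 (0.0407) or scramble replicate 2 (0.0412) and with TPM (0.0471), and MTRF1 with quantile normalization (0.0347).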

How the data were processed

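Total RNA was extracted with TRIzol and sequenced by a company, per the labels' protocols. Not given in the sources used here: RNA selection, annotation release, counting options and strand use. The submitters' processing notes name GRCh38, DESeq2 1.26.0, featureCounts 2.0.1, HISAT2 2.1.0 and Trimmomatic 0.39. The authors deposited FPKM for 58051 genes, and a filtered table of 401 genes whose columns, by the file headers, hold log2 fold changes and adjusted p-values. GENCODE 29 gave names, positions and lengths (57447 identifiers matched). FPKM times union exon length gave whole multiples of a step in each library (95.6% to 95.8% of low values within 0.02 reads), from which depth and reads were recovered.

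FPKM is not a count, so limma 3.58.1 (R 4.3.3) was fitted with a variance trend on log2(FPKM + 1) over 12912 genes (mean of 0.5 FPKM or more), without covariates, and adjusted over all of them by Benjamini-Hochberg. A pseudocount of 1 leaves the abundant members almost unaffected and shrinks changes of genes near 1 FPKM. The script was tested on simulated data. Values after ± are SDs over the 3 libraries of a group unless 6 are named. Named genes were all members, of each nuclear list the 5 tested genes with the smallest p, and every nuclear copy with a mean of 0.5 FPKM or more. Members were given per library where called, where an rRNA, or where among the 5 highest mRNAs; MT-ND1 and the scramble values of MT-ND3 were added after their values were seen. POLRMT, TFAM, TFB2M, LRPPRC, SLIRP, MTPAP, PRORP, PNPT1 and the other genes named outside this rule were chosen after their values were seen. Members and lists were chosen with earlier results of these data known. Alternatives covered pseudocount, filter, scaling, variance model, recovered reads with voom, the replicate number as a block, and each library left out.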

Additional observations from a re-analysis of the deposited data

How the results depend on the processing

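MT-RNR2 kept its direction and its call under every alternative run. With no filter on low values, 30416 genes were fitted and limma called 1 mitochondrial gene (1 higher, 0 lower; 4 lower at an unadjusted p under 0.05), against 8 (2 and 6) as reported. The cause was not tested. Leaving out 1 library gave 5 to 8 called mitochondrial genes (1 to 3 higher, 4 to 6 lower), 3374 to 4006 genes across the table against 4584, 27 to 35 genes of the nuclear lists (24 to 31 lower) against 36 (32 lower), and 40 to 60 short nuclear genes against 53. The lowest count of mitochondrial genes, 5, came without scramble replicate 1. Short nuclear genes called numbered 14 when a mean of 5 FPKM was required and 24 by voom. MT-CO3 holds rank 3 in every library, so quantile normalization sets its difference to 0.00. MT-ND1 and MT-ND4 passed with voom on recovered reads (adjusted p = 0.0242 and 0.0151), and MT-TP did not (0.0718). The difference in the mitochondrial share was -0.60 percentage points of FPKM (-0.78 to -0.35 without single libraries), -0.14 in reads and -1.02 for the 13 mRNAs alone. The rRNA part of mitochondrial FPKM was 2.95 points higher with mimic (2.43 to 3.58), and 4.04 in reads. The minus-strand part, which is MT-ND6 and MT-TP alone, differed by -0.23 points (-0.32 to -0.14, the latter without mimic replicate 3).

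Over all genes tested, the replicate numbers paired the libraries weakly if at all. Same-numbered deviations from the group means correlated by -0.06, 0.24 and 0.05. Mimic replicates 2 and 3 correlated best with the scramble replicate of the same number, but mimic replicate 1 did so with scramble replicate 3 (0.23). MT-RNR1 and MT-RNR2, however, both decreased from replicate 1 to replicate 3 in each group. With the replicate block 9 mitochondrial genes were called, MT-RNR1 being added (adjusted p = 0.00755), MTND2P28 passed (0.0447), NGRN did not (0.0521), and the calls numbered 4609 across the table, 36 of the nuclear lists and 65 short genes. MT-TF rests on 3 to 8 reads per library, and a count of 0 for the other tRNAs allows up to 3 reads.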

Other observations

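Genes that regulate mitochondrial biogenesis, or whose products scale with mitochondrial mass, form 1 of the 6 nuclear lists already counted, with 19 genes. Of the 18 tested, 7 fell and 1 rose, calls that are part of the 32 and 4 over all lists, beside 16.8% lower and 18.7% higher among all genes tested. TOMM20, the receptor of the outer membrane import complex, had the largest difference, from 42.1 ± 0.275 to 25.7 ± 0.615 FPKM (log2 -0.69, limma adjusted p = 1.7e-05). PPRC1, a coactivator of the PGC-1 family, fell by 0.29, VDAC2, a channel of the outer membrane, by 0.27 and LONP1, the matrix protease, by 0.21. Named after their values were seen, citrate synthase (CS) fell by 0.21, the transcription factor NRF1 by 0.29 and the import pore TOMM40 by 0.27 on the log2 scale. YY1, a transcription factor, rose by 0.20. The chaperones HSPD1 (0.07) and HSPA9 (0.04) and the channels VDAC1 (-0.05) and VDAC3 (-0.03) did not pass the test.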
